A study of Mus musculus with 24 samples.

Results

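Chemokine RNA was followed in cultured MC38 cells, a mouse colorectal cancer line derived from C57BL/6 mice, across all 24 samples of the series. The 10 genes described were Ccl2, Ccl5, Ccl7, Cxcl1, Cxcl5, Cxcl9, Cxcl10, Cxcl11, Cxcl16 and Cx3cl1, taken as a list by name from the 52636 genes of the deposited table. They were not chosen by a threshold on any value. Each of 8 lines was sequenced in 3 samples, harvested at passages between 4 and 9. MC38-WT was the untransfected line and the only line without puromycin selection. MC38-MOCK#1 had received an empty CRISPR/Cas9 construct and was the reference for MC38-COSMC KO, MC38-CMAS KO and MC38-DKO. MC38-COSMC KO, called MC38-Tnhigh in the study, carries a knockout of C1galt1c1, the gene of the COSMC chaperone that T-synthase needs to extend O-glycans beyond the Tn antigen. It is a mixed population and not a clone, enriched by repeated sorting for high binding of the lectin HPA. MC38-CMAS KO carries a knockout of Cmas, the gene of the enzyme that activates sialic acid, and MC38-DKO was made as a knockout of both genes. MC38-MOCK#2 was the reference for the lines labelled FUT4 and FUT9, in which CRISPR activation (dCas9-VPR) was aimed at the fucosyltransferase genes Fut4 and Fut9.

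Chemokines are small secreted proteins that draw leukocytes along a gradient by binding G protein-coupled receptors on them. Tumor cells are one of their sources. Ccl2 and Ccl7 act on CCR2 and recruit monocytes, and Cxcl1 and Cxcl5 act on CXCR2 and recruit neutrophils and granulocytic myeloid cells. Cxcl9, Cxcl10 and Cxcl11 are interferon-induced ligands of CXCR3, which activated T cells and NK cells carry, and Ccl5 attracts T cells and monocytes. Cx3cl1 and Cxcl16 are made as membrane proteins with a chemokine domain on a mucin-like stalk, from which metalloproteinases release them. The samples were cultures of the tumor cells alone, without host cells.

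The chemokine genes lie in a few clusters, given here in GRCm38 coordinates, which were the same in the deposited table and the GENCODE annotation. Ccl2 (chromosome 11, 82035571 to 82037453, plus strand) and Ccl7 (82045712 to 82047525, plus strand) are neighbors with a gap of 8.3 kb. Ccl5 lies 1478.3 kb beyond Ccl7 (83525778 to 83530518, minus strand), and Cxcl16 is farther off on the same chromosome (70453983 to 70459984, minus strand). Cxcl5 (chromosome 5, 90759360 to 90761624, plus strand) and Cxcl1 (90891241 to 90893115, plus strand) are 129.6 kb apart. Cxcl9 (chromosome 5, 92321347 to 92328079), Cxcl10 (92346638 to 92348889) and Cxcl11 (92359544 to 92365485) stand in a row on the minus strand with gaps of 18.6 and 10.7 kb. Cx3cl1 is alone on chromosome 8 (94772009 to 94782427, plus strand). Exons of Cxcl10, Cxcl11 and Cxcl16 overlap exons on the opposite strand, of Art3 over 133 bases, of Gm2673 over 1582 bases and of Zmynd15 over 552 bases. Whether strand was used in counting is not given in the sources used here, and reads that overlap several genes were left out. Reads in these stretches would be left out if strand was not used, and assigned to 1 of the genes if it was.

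Promoter sequences from RefSeq (GRCm38.p6) were at hand for 4 of the 10 genes, and the 250 bases before the annotated start are shown for these 4: Cxcl1 (chr5:90890995-90891244, plus strand), Cxcl9 (chr5:92328080-92328329, minus strand), Cxcl10 (chr5:92348890-92349139, minus strand) and Cx3cl1 (chr8:94771930-94772179, plus strand). Capitals mark 4 motifs, and overlapping matches run together: the pair of interferon-response half-sites (GAAA and GAAA, 2 bases apart), the kappa-B consensus and the AP-1 motif TGANTCA, each searched on both strands, and TATAAA on the given strand.
Cxcl1: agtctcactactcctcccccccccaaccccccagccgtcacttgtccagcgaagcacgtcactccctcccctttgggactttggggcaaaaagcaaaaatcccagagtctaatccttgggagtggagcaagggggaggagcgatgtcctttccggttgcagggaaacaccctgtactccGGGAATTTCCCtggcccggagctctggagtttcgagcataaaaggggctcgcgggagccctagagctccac
Cxcl9: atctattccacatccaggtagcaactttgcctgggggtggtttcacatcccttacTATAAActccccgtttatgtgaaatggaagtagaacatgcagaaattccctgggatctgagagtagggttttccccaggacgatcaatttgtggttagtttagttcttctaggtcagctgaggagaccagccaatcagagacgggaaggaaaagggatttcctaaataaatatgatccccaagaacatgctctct
Cxcl10: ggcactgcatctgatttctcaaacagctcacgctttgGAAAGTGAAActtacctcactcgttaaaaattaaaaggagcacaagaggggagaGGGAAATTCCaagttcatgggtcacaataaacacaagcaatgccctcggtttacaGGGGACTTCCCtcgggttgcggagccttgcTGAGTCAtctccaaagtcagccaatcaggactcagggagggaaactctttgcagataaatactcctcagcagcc
Cx3cl1: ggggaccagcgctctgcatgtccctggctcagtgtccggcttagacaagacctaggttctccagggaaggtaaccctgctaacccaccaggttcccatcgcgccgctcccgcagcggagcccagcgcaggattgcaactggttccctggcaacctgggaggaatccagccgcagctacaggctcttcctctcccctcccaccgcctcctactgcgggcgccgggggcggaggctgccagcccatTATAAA
The Cxcl10 promoter holds the GAAA pair 213 bases before the start, kappa-B matches at 159 and at 104 and 103 bases, and TGANTCA at 74 bases. The Cxcl1 promoter holds a kappa-B match 71 bases before the start, read on both strands. In Cxcl9 and Cx3cl1 the only match was TATAAA, 195 and 6 bases before the start. RefSeq places the Cxcl1 and Cx3cl1 starts inside the gene spans given above. Of 32851 promoters of this length, the GAAA pair was found in 2.98%, the kappa-B consensus in 7.25%, TGANTCA in 6.75% and TATAAA in 7.59%. These matches describe letters, and no binding was measured.

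Values are the authors' normalized counts: reads per gene scaled to a common library size and rounded to whole numbers. They summed to between 10911849 and 12263307 per sample, and the number of reads behind them was not estimated here. C1galt1c1 was at 124 to 163 normalized counts in MC38-COSMC KO and at 220 to 251 in MC38-MOCK#1, and Cmas was at 93 to 142 in MC38-CMAS KO and MC38-DKO against 272 to 416 in the other 6 lines. The C1galt1c1 values of MC38-COSMC KO overlapped with those of MC38-MOCK#2 (154 to 217) and MC38-CMAS KO (152 to 215). They lay below those of MC38-WT (202 to 244), the line labelled FUT4 (184 to 230) and MC38-FUT9 (191 to 210). In MC38-DKO, C1galt1c1 stood at 166 to 206 against 152 to 215 in MC38-CMAS KO, so its RNA does not show the second knockout, and an edit that leaves the RNA in place would not be seen. In the line labelled FUT4, Fut4 was at 1, 0 and 1, and at 0 in the other 21 samples, while Fut9 was at 171 to 209. Fut9 was at 641 to 955 in MC38-FUT9 and at most 7 in the other 6 lines. Of 16 leukocyte markers, Cd3e, Cd8a, Ncr1 and S100a9 were at 0 in all 24 samples, and all 16 summed to 6 to 20 in 7 lines and to 25 to 45 in the line labelled FUT4. The 4 endothelial markers summed to 0 to 19. RNA of the fibroblast list was found in all 8 lines, with sums of 703 to 15550 that were highest in MC38-MOCK#2 and the line labelled FUT4. The label of a colorectal line was not matched by epithelial markers: Epcam was at most 3 and Cdx2 at most 1 everywhere, and Krt20 was at 263 to 468 in the line labelled FUT4, 30 to 44 in MC38-CMAS KO and at most 6 elsewhere. In bulk RNA, fewer cells that express a gene and less RNA per cell cannot be told apart.

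MC38 cells expressed 6 of the 10 chemokines at a mean of at least 10 normalized counts, and barely any of the other 4. Per kilobase of exon, which allows genes to be compared, the mean over 24 samples was 943 for Ccl2, 230 for Cxcl10, 126 for Ccl7, 112 for Cxcl1, 37.3 for Cx3cl1 and 31.0 for Ccl5. Cxcl5 followed at 2.24 and Cxcl11 at 0.362. Cxcl16 reached 2 normalized counts in 1 MC38-WT sample, and 1 in a sample each of MC38-MOCK#2 and the line labelled FUT4, and was 0 in the other 21. Cxcl9 was 1 in a single MC38-DKO sample and 0 in the other 23. A value of 3 normalized counts was taken as the floor, so expression of Cxcl9 and Cxcl16 was not detectable at this depth. Cxcl9 and Cxcl10, interferon-induced neighbors on chromosome 5, thus stood at opposite ends of the list.

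**Figure D1:**
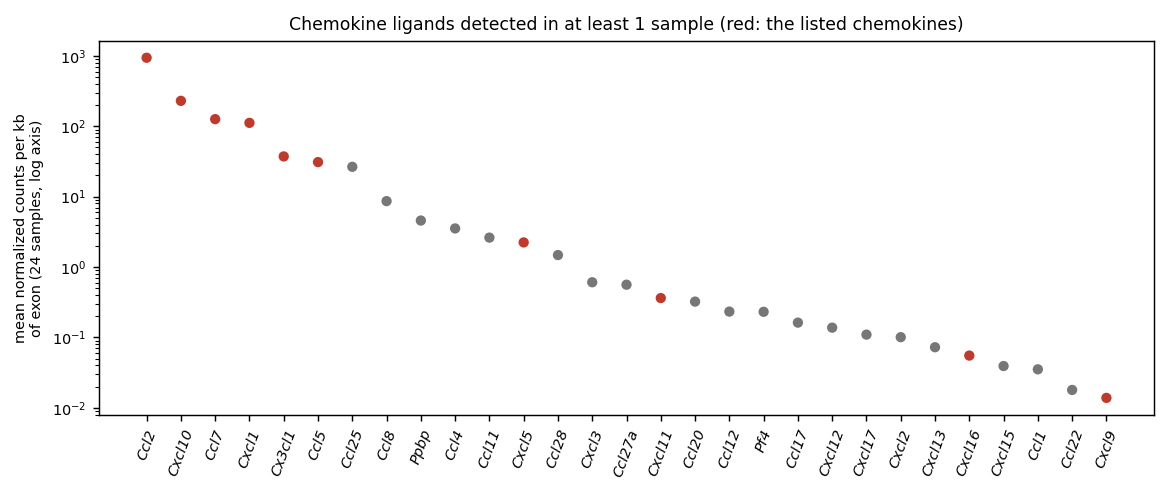
Mean level of the 29 chemokine ligands detected in at least 1 sample, as normalized counts per kilobase of exon over 24 samples (y axis, log scale), ordered by level (x axis), with the 10 listed chemokines in red. Ccl2 leads at 943 per kilobase, and Cxcl9 and Cxcl16 are near the lower end.

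Ccl2 had the highest level per kilobase of all chemokine ligands in each of the 24 samples. It stood at 474, 420 and 918 normalized counts in MC38-MOCK#1 and at 1559, 1668 and 1780 in MC38-COSMC KO. The 2 lines did not overlap, and the 3 MC38-MOCK#1 samples were themselves spread, with sample 3 near the MC38-CMAS KO values of 905, 932 and 862. In MC38-COSMC KO, Ccl2 rose by 1.55 ± 0.27 on the log2 scale (SE, adjusted p = 0.0126). That call was lost in 5 of 6 fits that left out a sample, with adjusted p up to 0.0975, and held only without sample 3 of MC38-MOCK#1. MC38-WT, at 914, 1806 and 1440, overlapped with MC38-COSMC KO. The log2 difference of MC38-WT from MC38-MOCK#1 was 1.23 ± 0.34 and did not pass the test (adjusted p = 0.0909).

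In the line labelled FUT4, Ccl2 was at 1424, 1715 and 1515 normalized counts against 758, 686 and 1030 in MC38-MOCK#2. These groups did not overlap, and Ccl2 rose by 0.93 ± 0.16 on the log2 scale (adjusted p = 0.00886). Without sample 1 of MC38-MOCK#2, or without any 1 of the 3 samples of the line labelled FUT4, the call was lost, with adjusted p up to 0.062. MC38-DKO (728, 763 and 779) and MC38-FUT9 (839, 871 and 957) stayed in the range of the mock lines. Ordered by mean, Ccl2 was at 1669 ± 111 (SD, n = 3) in MC38-COSMC KO, 1551 ± 149 in the line labelled FUT4, 1387 ± 448 in MC38-WT, 900 ± 35.3 in MC38-CMAS KO, 889 ± 61.0 in MC38-FUT9, 825 ± 181 in MC38-MOCK#2, 757 ± 26.1 in MC38-DKO and 604 ± 273 in MC38-MOCK#1. Every neighboring pair in this order overlapped.

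**Figure D2:**
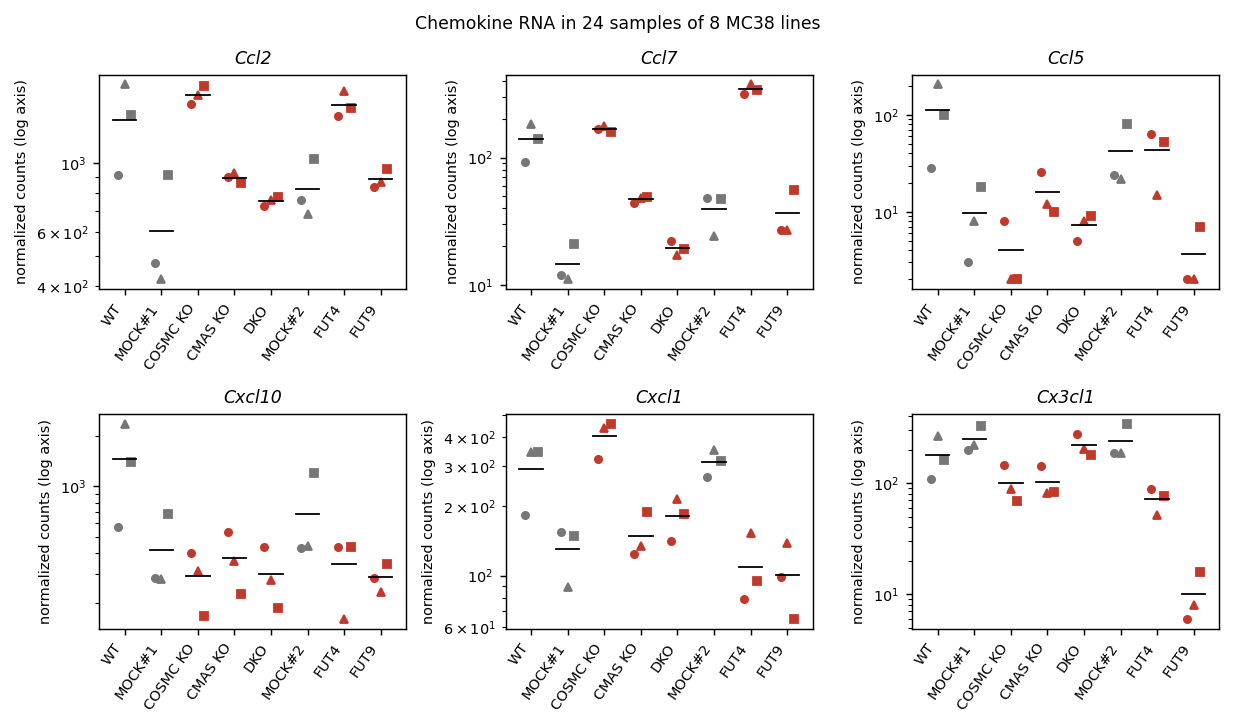
Normalized counts (y axis, log scale) of the 6 expressed chemokines in each sample of the 8 lines (x axis), with circles, triangles and squares for samples 1, 2 and 3, bars at the mean, and gray for MC38-WT and the mock lines. Ccl7 ranges from 11 in MC38-MOCK#1 to 377 in the line labelled FUT4, and Cx3cl1 is at 6 to 16 in MC38-FUT9.

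Ccl7, the neighbor of Ccl2 and a ligand of the same receptor, ranged from 11 to 377 normalized counts over the samples. It was at 12, 11 and 21 normalized counts in MC38-MOCK#1, 168, 176 and 160 in MC38-COSMC KO, 44, 48 and 49 in MC38-CMAS KO and 22, 17 and 19 in MC38-DKO. MC38-COSMC KO and MC38-CMAS KO each lay above all MC38-MOCK#1 samples, while MC38-DKO overlapped with them. Ccl7 rose by 3.48 ± 0.25 (adjusted p = 0.000747) in MC38-COSMC KO, a call that held without any 1 sample, with adjusted p up to 0.0316. In MC38-CMAS KO it rose by 1.67 ± 0.29 (adjusted p = 0.0235). This call was lost in 5 of 6 fits without a sample, with adjusted p up to 0.12, and held only without sample 3 of MC38-MOCK#1. The difference of MC38-DKO was 0.42 ± 0.34 (adjusted p = 0.794). Some genes of the fibroblast list moved with Ccl7 in these lines. Of its 6 genes, 2 were called higher in MC38-COSMC KO, 4 in MC38-CMAS KO and 0 in MC38-DKO, and their sum was 1081 to 1334, 1288 to 1572 and 703 to 978 against 712 to 1029 in MC38-MOCK#1. Pdgfrb, a receptor of mesenchymal cells, was at 440 to 520 in MC38-COSMC KO, 298 to 390 in MC38-CMAS KO, 27 to 77 in MC38-DKO and 61 to 189 in MC38-MOCK#1. Others of the list did not follow Ccl7. Col3a1 was at 134 to 234 in MC38-DKO, 57 to 88 in MC38-COSMC KO and 24 to 65 in MC38-MOCK#1, and over these 4 lines Dcn was at 0 to 6 and Pdgfra at 481 to 716. In the other lines Pdgfrb was at 336 to 668 in MC38-WT and 471 to 1100 in MC38-MOCK#2. It was at 604 to 990 in MC38-FUT9 and 117 to 135 in the line labelled FUT4, where Ccl7 was highest. Whether any cells marked by these genes contributed to the chemokine values was not tested.

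Ccl7 was also high outside the knockout lines. MC38-WT stood at 93, 185 and 140 normalized counts, around the values of MC38-COSMC KO, and differed from MC38-MOCK#1 by 3.16 ± 0.35 on the log2 scale (adjusted p = 0.00524). That call was lost without sample 3 of MC38-WT or without sample 1 or 2 of MC38-MOCK#1, with adjusted p up to 0.0867. MC38-WT samples came from passages 7 to 9 and MC38-MOCK#1 samples from passages 4 to 6, so passage, puromycin and construct cannot be told apart in this comparison. The line labelled FUT4 had the highest values, 316, 377 and 342, against 48, 24 and 47 in MC38-MOCK#2. There Ccl7 rose by 3.15 ± 0.27 (adjusted p = 0.000745), and the call held without any 1 sample. In that line the leukocyte list summed to 25 to 45 and Krt20 was at 263 to 468. Cd3e, Cd8a, Ncr1 and S100a9 were at 0, as in all 24 samples. Against MC38-MOCK#2, 2 of 7 leukocyte markers tested and 1 of 2 endothelial markers tested were called higher and 0 lower. Lyz2 was at 17, 10 and 14 (2, 6 and 12 in MC38-MOCK#2), Cd3d at 7, 4 and 3 (0), Cd79a at 11, 4 and 2 (2, 1 and 4) and Cdh5 at 10, 6 and 16 (0, 0 and 3). Whether any cells with these markers contributed to the Ccl2 and Ccl7 values was not tested. In MC38-FUT9, at 27, 27 and 56, the difference was -0.13 ± 0.39 (adjusted p = 0.854). MC38-MOCK#2 itself lay above all MC38-MOCK#1 samples, by 1.37 ± 0.38, which did not pass in limma (adjusted p = 0.0671). That difference was called with a mean of at least 10 required (adjusted p = 0.0400) and in the fit of all 8 lines (adjusted p = 0.00214). MC38-CMAS KO, at 44, 48 and 49, overlapped with MC38-MOCK#2. The size of a Ccl7 difference thus depends on which mock line serves as reference. In the order of the means, the line labelled FUT4 was apart from MC38-COSMC KO, MC38-WT from MC38-CMAS KO and MC38-FUT9 from MC38-DKO, and the other neighbors overlapped.

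Cxcl1 was higher in MC38-COSMC KO and lower in both fucosyltransferase lines. The values were 155, 89 and 149 normalized counts in MC38-MOCK#1 and 321, 437 and 457 in MC38-COSMC KO, with no overlap. Cxcl1 rose by 1.65 ± 0.24 on the log2 scale (adjusted p = 0.00653), and the call was lost without sample 2 or sample 3 of MC38-COSMC KO, with adjusted p up to 0.0761. MC38-CMAS KO (124, 135 and 189) and MC38-DKO (142, 215 and 186) overlapped with MC38-MOCK#1. MC38-WT, at 184, 345 and 345, had a difference of 1.13 ± 0.31 that did not pass (adjusted p = 0.0861).

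The 2 mock lines differed in Cxcl1. MC38-MOCK#2 was at 267, 352 and 316 normalized counts, above all MC38-MOCK#1 samples by 1.28 ± 0.23 on the log2 scale (adjusted p = 0.0172), a call lost in 5 of 6 fits without a sample, with adjusted p up to 0.0919, and held only without sample 2 of MC38-MOCK#1. Their samples came from passages 6 to 8 and 4 to 6, so passage and construct cannot be told apart here. Against MC38-MOCK#2, the line labelled FUT4 was at 79, 153 and 95, and Cxcl1 fell by 1.55 ± 0.25 (adjusted p = 0.00701). That call was lost without sample 2 of MC38-MOCK#2 or sample 3 of the line labelled FUT4, with adjusted p up to 0.059. In MC38-FUT9, at 99, 138 and 65, Cxcl1 fell by 1.68 ± 0.26 (adjusted p = 0.00531), and the call held without any 1 sample. Both lines overlapped with MC38-MOCK#1, so for Cxcl1 the size of a difference depends on which mock line serves as reference. By mean, MC38-COSMC KO led with 405 ± 73.4 (SD, n = 3), and MC38-FUT9 was last with 101 ± 36.5. All neighbors in the order overlapped.

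Cxcl5, the other CXCR2 ligand, was close to the floor. It was at 8, 12 and 8 normalized counts in MC38-COSMC KO, 5 to 7 in MC38-WT, 3 to 7 in MC38-CMAS KO, 5 or 6 in MC38-DKO and 1 or 2 in MC38-MOCK#1. Cxcl5 rose by 2.15 ± 0.38 on the log2(value + 1) scale in MC38-COSMC KO (adjusted p = 0.0140), and the call was lost without sample 2 of either line, with adjusted p up to 0.0624. With MC38-MOCK#1 at or under the floor of 3, the size of this difference depends on the added 1. In the second set the values were 3 or 4 in MC38-MOCK#2, 0 to 5 in the line labelled FUT4 and 0 to 2 in MC38-FUT9, and no difference passed.

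Among the interferon-induced CXCR3 ligands, Cxcl10 was the second most abundant chemokine by mean level per kilobase with the highest sample of a line 1.47 to 4.15 times the lowest. It was at 570, 2366 and 1400 normalized counts in MC38-WT, 283, 281 and 682 in MC38-MOCK#1, 398, 313 and 168 in MC38-COSMC KO, 533, 356 and 227 in MC38-CMAS KO and 434, 276 and 187 in MC38-DKO. The knockout lines all overlapped with MC38-MOCK#1. The MC38-MOCK#2 samples were at 428, 438 and 1197, those of the line labelled FUT4 at 437, 162 and 437, and those of MC38-FUT9 at 285, 233 and 342. The log2 difference was 1.70 ± 0.55 for MC38-WT (adjusted p = 0.129), -0.46 ± 0.42 for MC38-COSMC KO (adjusted p = 0.561) and -1.10 ± 0.39 for MC38-FUT9 (adjusted p = 0.0924) and none of these passed. With a mean of at least 10 normalized counts required of a gene, the difference of -1.10 in MC38-FUT9 was called (adjusted p = 0.0491), and in the fit of all 8 lines together that of 1.70 in MC38-WT was (adjusted p = 0.0302). Over all 8 lines a difference was called (adjusted p = 0.0120), but without sample 2 or sample 3 of MC38-WT it was lost, with adjusted p up to 0.0866.

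Cxcl11 lay at or under 8 normalized counts. It was at 8, 5 and 2 in MC38-DKO and 1, 7 and 3 in MC38-WT, and between 0 and 2 in the other 6 lines. Its difference between MC38-DKO and MC38-MOCK#1 was 1.78 ± 0.56 (adjusted p = 0.446). Its exons overlap those of Gm2673, and reads in the shared stretch may have been left out of these values.

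Ccl5 was low and uneven. It stood at 28, 207 and 100 normalized counts in MC38-WT against 3, 8 and 18 in MC38-MOCK#1, a log2 difference of 3.27 ± 0.81 that did not pass the test (adjusted p = 0.0673), although the groups did not overlap. MC38-COSMC KO (8, 2 and 2), MC38-CMAS KO (26, 12 and 10) and MC38-DKO (5, 8 and 9) overlapped with MC38-MOCK#1. MC38-MOCK#2 was at 24, 22 and 81 and the line labelled FUT4 at 63, 15 and 52. In MC38-FUT9, at 2, 2 and 7, Ccl5 fell by 3.12 ± 0.63 on the log2 scale (adjusted p = 0.0133). The call was lost without sample 1 or sample 2 of MC38-FUT9, with adjusted p up to 0.0762. MC38-FUT9 overlapped with MC38-MOCK#1, and its values of 2 lay under the floor of 3. MC38-MOCK#2 lay above all MC38-MOCK#1 samples, by 2.04 ± 0.71, which did not pass in limma (adjusted p = 0.123). For Ccl5 the size of a difference thus depends on which mock line serves as reference.

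Cx3cl1, the membrane-anchored ligand of CX3CR1, was called lower in 4 of the 5 engineered lines. It was at 198, 221 and 325 normalized counts in MC38-MOCK#1, 147, 88 and 69 in MC38-COSMC KO, 142, 81 and 83 in MC38-CMAS KO and 279, 202 and 178 in MC38-DKO. Both single knockouts lay below all MC38-MOCK#1 samples and MC38-DKO overlapped with them. Cx3cl1 fell by 1.32 ± 0.30 on the log2 scale in MC38-COSMC KO (adjusted p = 0.0317) and by 1.29 ± 0.27 in MC38-CMAS KO (adjusted p = 0.0430). The first call held only without sample 1 of MC38-COSMC KO, with adjusted p up to 0.164 in the other 5 fits. The second was lost whichever of the 6 samples was left out, with adjusted p from 0.0558 to 0.165.

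In MC38-FUT9, Cx3cl1 was at 6, 8 and 16 normalized counts against 189, 189 and 345 in MC38-MOCK#2. The groups were far apart, Cx3cl1 fell by 4.50 ± 0.39 on the log2 scale (adjusted p = 0.00063), and the call held without any 1 sample. In the line labelled FUT4 it was at 88, 52 and 77 and fell by 1.70 ± 0.29 (adjusted p = 0.00996), a call lost without sample 3 of that line (adjusted p = 0.0621). MC38-WT, at 110, 267 and 161, overlapped with MC38-MOCK#1. Ordered by mean, Cx3cl1 stood between 248 ± 67.7 (SD, n = 3) in MC38-MOCK#1 and 10.0 ± 5.29 in MC38-FUT9. MC38-FUT9 was apart from its neighbor, the line labelled FUT4, and the other neighboring lines overlapped.

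**Figure D3:**
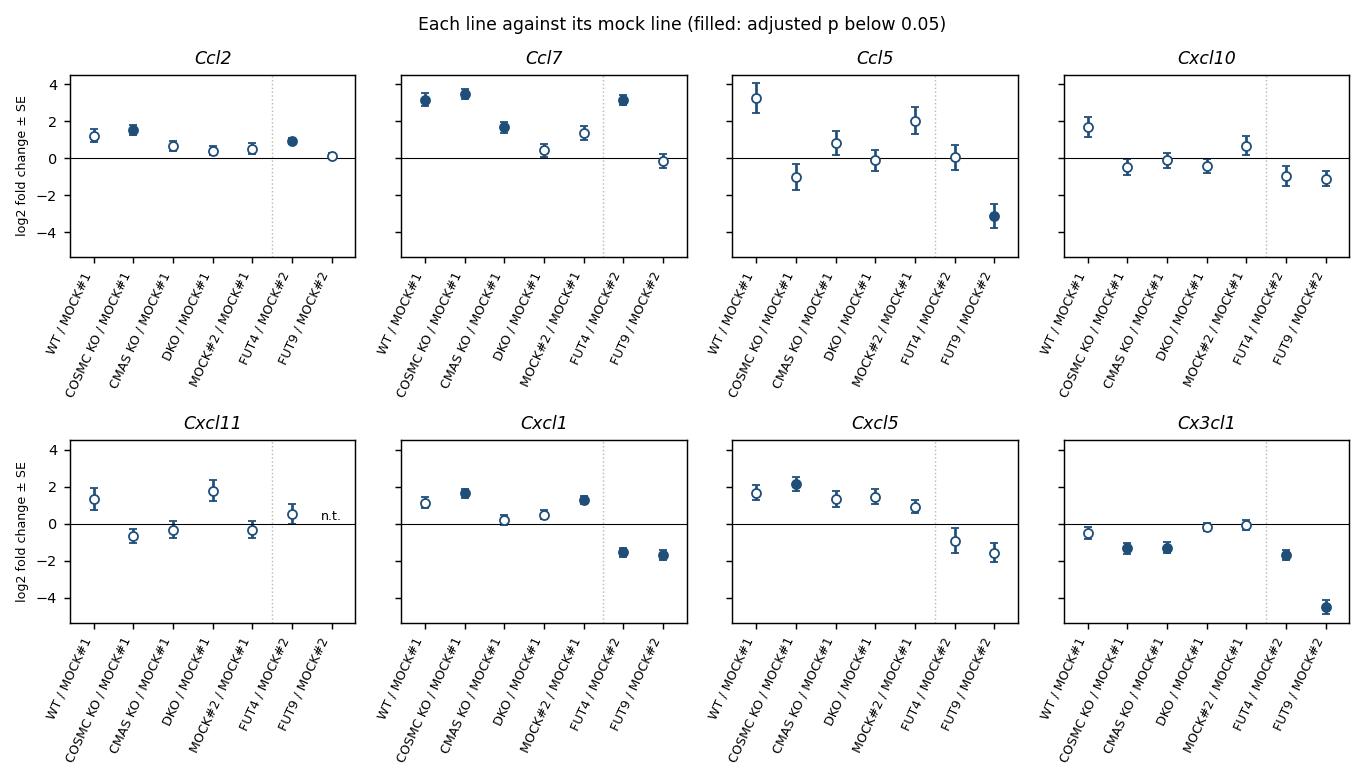
Log2 fold change ± SE (y axis) of 8 chemokines in each of 7 comparisons (x axis), with filled points for adjusted p below 0.05, n.t. for not tested, and a dotted line between the sets that use MC38-MOCK#1 and MC38-MOCK#2. Ccl7 is called higher in 4 comparisons, the largest fall is that of Cx3cl1 in MC38-FUT9 (-4.50), and Cxcl10 has no filled point.

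By comparison, the listed chemokines were called as follows, where the first 5 comparisons share the MC38-MOCK#1 samples and the last 2 share those of MC38-MOCK#2. In MC38-COSMC KO, 5 of the 8 chemokines tested were called, with Ccl2, Ccl7, Cxcl1 and Cxcl5 higher and Cx3cl1 lower, against 6.17% of all genes called higher and 5.39% lower. Their median log2 difference was 0.55 and that of all genes 0.00. In fits without 1 of the 6 samples, between 1 and 4 chemokines were called, and between 675 and 2137 of all genes. In MC38-CMAS KO, Ccl7 was called higher and Cx3cl1 lower of 8 tested, against 3.02% and 2.73% of all genes, with medians of 0.43 and 0.00. Without 1 sample, between 0 and 2 were called there, and between 122 and 876 of all genes. In MC38-DKO, 0 of 8 were called by limma, where 0.023% of all genes were called higher and 0.069% lower. At an unadjusted p below 0.05, 2 of the 8 were past that limit there, Cxcl5 and Cxcl11, both higher, and 1632 of all 21738 genes tested were past it in either direction. The median of the 8 was 0.42.

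In MC38-WT, Ccl7 was the 1 chemokine called of 8 tested, higher than in MC38-MOCK#1, against 2.7% of all genes called higher and 2.81% lower. The median of the 8 was 1.5 against -0.01 for all genes, and 7 of 8 differences were above 0. When all 8 lines were fitted together, 6 were called in this comparison, with Ccl2, Ccl5, Cxcl1, Cxcl5 and Cxcl10 added. That fit called 1445 of all 21621 genes higher and 1536 lower. In MC38-MOCK#2 against MC38-MOCK#1, Cxcl1 was called of 8 tested, against 5.3% of all genes called higher and 6.02% lower. In the line labelled FUT4, Ccl2 and Ccl7 were called higher and Cxcl1 and Cx3cl1 lower of 9 tested, against 8.1% and 8.04% of all genes, with a median of 0.00. In fits without 1 sample, between 1 and 4 chemokines were called, and between 1621 and 3112 of all genes. In MC38-FUT9, Ccl5, Cxcl1 and Cx3cl1 were called lower and none higher of 7 tested, against 12.1% of all genes called higher and 12% lower, with medians of -1.58 and 0.01. Over all 8 lines, each of the 8 chemokines that could be tested was called, where 43% of all genes were.

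The lines MC38-MOCK#1, MC38-COSMC KO, MC38-CMAS KO and MC38-DKO cross both knockouts, as labelled, which allows a test of whether loss of COSMC went with the same difference when CMAS was also lost. For 6 of 8 chemokines it did not, where 11.1% of all genes were called with a higher and 11% with a lower effect in the CMAS knockout background. Between MC38-COSMC KO and MC38-MOCK#1, Ccl7 differed by 3.48 on the log2 scale, and the same step from MC38-CMAS KO to MC38-DKO gave -1.25. The difference between these effects was -4.73 ± 0.34 (adjusted p = 4.85e-07). For Ccl2 the effects were 1.55 and -0.25, and their difference -1.80 ± 0.28 (adjusted p = 0.000411). For Cx3cl1 they were -1.32 and 1.12, and their difference 2.44 ± 0.41 (adjusted p = 0.000664).

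Differences of the same kind were found for Cxcl1, with effects of 1.65 and 0.28 that differed by -1.37 ± 0.33 (adjusted p = 0.00778), and for Cxcl5, with 2.15 and 0.13 that differed by -2.02 ± 0.57 (adjusted p = 0.0208). Cxcl11 had effects of -0.67 and 2.11 that differed by 2.78 ± 0.71 (adjusted p = 0.0119), at values of 0 to 8 normalized counts. The Cxcl5 call was lost without sample 2 of MC38-COSMC KO or sample 3 of MC38-CMAS KO, with adjusted p up to 0.0524, and the other 5 calls held without any 1 of the 12 samples. The effects for Ccl5 differed by 0.08 ± 0.86 (adjusted p = 0.970) and for Cxcl10 by 0.14 ± 0.58 (adjusted p = 0.908). Since C1galt1c1 RNA did not differ visibly between MC38-DKO and MC38-CMAS KO, the contrast rests on the label of the double knockout. Each genotype was a single line, so knockout and line cannot be told apart here. Between MC38-DKO and MC38-MOCK#1, 20 of all 21738 genes were called. Of the 6 genes of the fibroblast list, 4 were called with a lower effect in the same test, and their part in the result was not tested.

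**Figure D4:**
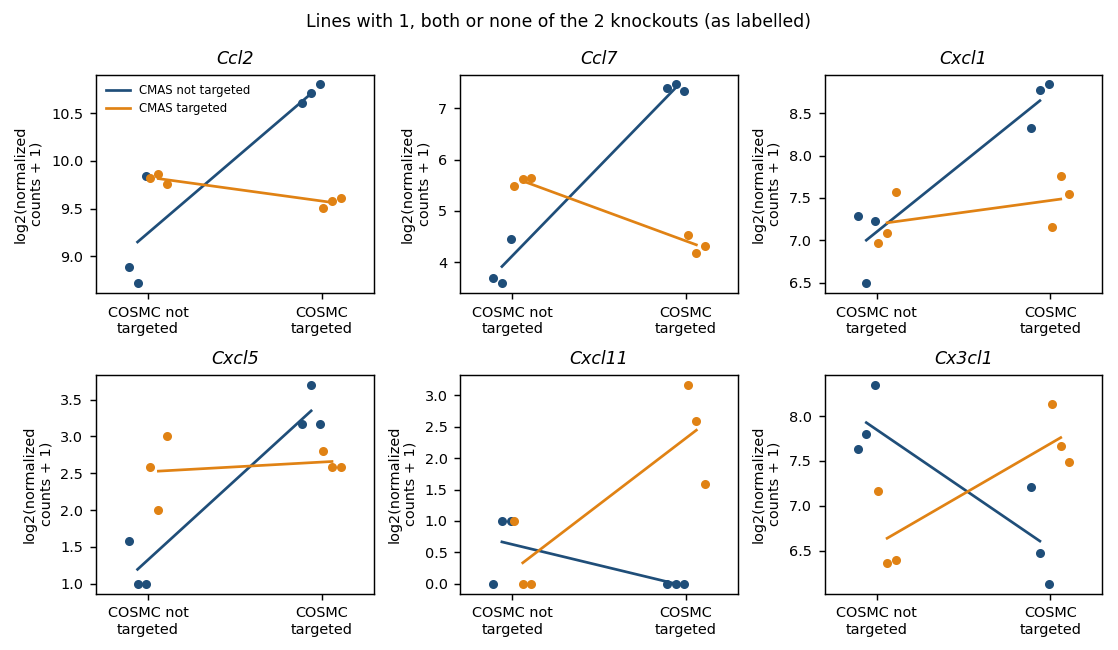
Log2(normalized counts + 1) (y axis) of the 6 chemokines with a called difference between effects, in lines without and with the COSMC knockout (x axis), as labelled, with points for samples and lines joining the means, blue without and orange with the CMAS knockout. For Ccl7 the blue line rises by 3.48 and the orange line falls by 1.25.

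Within lines, Cxcl10, Ccl5 and Cx3cl1 were high in the same samples. The sample of a line with the highest Cxcl10 also had the highest Cx3cl1 in 8 of 8 lines and the highest Ccl5 in 7 of 8, with MC38-DKO as the exception. Some Ccl5 values lay near the floor of 3. They were 8, 2 and 2 in MC38-COSMC KO, 2, 2 and 7 in MC38-FUT9 and 3, 8 and 18 in MC38-MOCK#1. In the line labelled FUT4, samples 1 and 3 had equal Cxcl10 and the first was counted. Irf7, an interferon-induced transcription factor, peaked in the same sample as Cxcl10 in 8 of 8 lines. Irf7 was at 6, 222 and 47 normalized counts in MC38-WT, 13, 21 and 102 in MC38-MOCK#1 and 41, 30 and 352 in MC38-MOCK#2. In those 3 lines the highest Cxcl10 sample stood 4.15, 2.43 and 2.80 times above the lowest.

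As deviations from the mean of their line, values of Cxcl10 correlated with those of Irf7 with r = 0.96, of Cx3cl1 with r = 0.862 and of Ccl5 with r = 0.827 over 24 samples on the log2 scale. For Ccl2 and Ccl7 the deviations correlated with r = 0.750, and for Cxcl10 and Cxcl1 with r = -0.132. These values are descriptions of 24 samples in 8 lines that share culture, harvest and library within a sample, and Irf7 was picked out of the 12 factors after its values were seen.

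**Figure D5:**
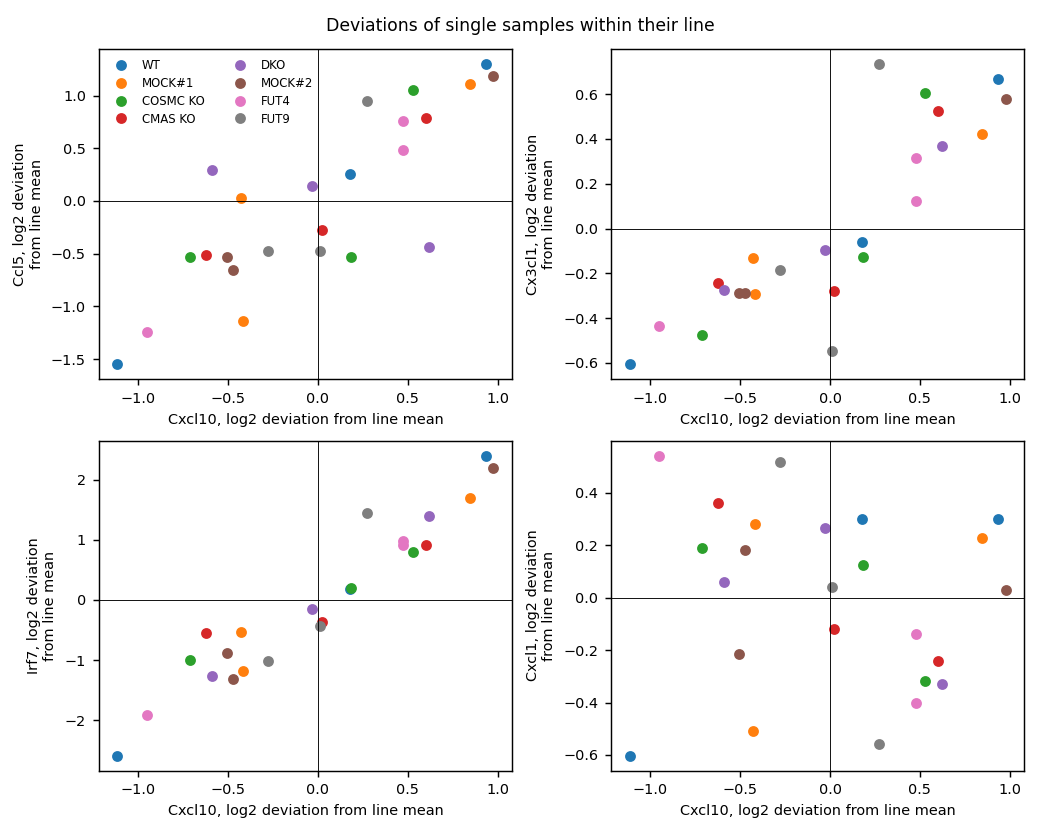
Deviation of each of 24 samples from the mean of its line on the log2 scale, for Cxcl10 (x axes) against Ccl5, Cx3cl1, Irf7 and Cxcl1 (y axes), with a color for each line. Irf7 follows Cxcl10 closely (r = 0.96), and samples far to the right belong to MC38-WT, MC38-MOCK#1 and MC38-MOCK#2.

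Other genes of the chemokine system were little expressed. Of 28 other chemokine ligands, 9 were at 0 in all 24 samples, 18 were detected at a mean below 10 normalized counts, and Ccl25 alone was above that, at 133 to 265. Exons of Ccl25 overlap those of Elavl1 on the opposite strand over 204 bases. Ccl4, which attracts monocytes and T cells, was at 4, 11 and 10 in MC38-WT and 11, 4 and 6 in the line labelled FUT4 against 0 or 1 in both mock lines, and was called higher in both (2.79 ± 0.53, adjusted p = 0.0299, and 2.24 ± 0.50, adjusted p = 0.0251). Cxcl12, the ligand of CXCR4 and ACKR3, was at 3, 8 and 15 in MC38-MOCK#2 and at most 1 elsewhere. Of 22 receptors, 10 were at 0 throughout and none reached a mean of 10. Ackr3, a scavenging receptor of Cxcl12 and Cxcl11, was at 9, 12 and 19 in MC38-MOCK#2, 0 in the line labelled FUT4 and 32, 36 and 62 in MC38-FUT9. It rose by 1.63 ± 0.37 in MC38-FUT9 (adjusted p = 0.0204). Ccl4, Cxcl12 and Ackr3 were named after their values were seen.

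The calls in these lists can be set beside the shares of all genes given above. Of the 28 other ligands, 1 of 8 tested was higher in MC38-WT, 0 of 11 in MC38-COSMC KO, 0 of 9 in MC38-CMAS KO and MC38-DKO, 1 of 10 higher in MC38-MOCK#2, 1 higher and 1 lower of 9 in the line labelled FUT4, and 2 lower of 9 in MC38-FUT9, where 12% of all genes were lower. The 2 lower in MC38-FUT9 were Ccl11 and Cxcl12. In the test of crossed effects 1 of 9 was called, with a higher effect. Among 11 ligands tested over all lines, 6 differed, where 43% of all genes did. The receptors gave 1 call each in MC38-MOCK#2, the line labelled FUT4, MC38-FUT9, the test of crossed effects and the test over all lines, and that receptor was Ackr3 each time.

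The 12 transcription factors that act on chemokine genes, of the interferon-response, NF-kappa-B and AP-1 families, were all expressed at a mean of at least 10 normalized counts. In MC38-FUT9, 5 of 12 were called lower and 2 higher, against 12% and 12.1% of all genes. Irf7 fell by 4.26 ± 1.03 on the log2 scale (adjusted p = 0.0262) and Stat2 fell by 1.64 ± 0.39 (adjusted p = 0.0233). Irf1 fell by 1.18 ± 0.13 (adjusted p = 0.00137). Fos and Rel were also lower, and Nfkb1 and Nfkb2 were higher. In MC38-COSMC KO, Irf1 fell by 0.66 ± 0.07 (adjusted p = 0.00234) and Jun rose by 1.60 ± 0.37 (adjusted p = 0.0342). In MC38-CMAS KO, Irf1 fell by 0.64 ± 0.09 (adjusted p = 0.0106) and Rel was lower as well. The counts were 0 of 12 in MC38-DKO, 1 higher in MC38-WT (Nfkb1), 2 higher in MC38-MOCK#2 (Nfkb1 and Jun) and 3 lower in the line labelled FUT4 (Nfkb1, Rel and Fos). In the test of crossed effects, 4 of 12 were called with a higher and 2 with a lower effect in the CMAS knockout background, against 11.1% and 11% of all genes. The effect of the COSMC knockout on Irf1 differed with the CMAS knockout, by 1.22 ± 0.14 (adjusted p = 3.47e-05).

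The proteases that release Cx3cl1 and Cxcl16 from the membrane were expressed in every sample. Adam10 was at 1081 to 1390 normalized counts and Adam17 at 1015 to 1452 over the 24 samples, and Dpp4, which trims the CXCR3 ligands, was at most 1. Adam10 fell by 0.26 ± 0.05 in MC38-COSMC KO (adjusted p = 0.0214), and Adam17 fell by 0.30 ± 0.07 in MC38-MOCK#2 (adjusted p = 0.0372). The effect of the COSMC knockout was called higher in the CMAS knockout background for both, by 0.38 ± 0.09 for Adam10 (adjusted p = 0.0074) and by 0.36 ± 0.10 for Adam17 (adjusted p = 0.0190). Over all lines Adam17 was called (adjusted p = 0.000863).

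The genes most like each chemokine over the 24 samples were found by Pearson correlation on the log2 scale among 13515 genes with a mean of at least 10 normalized counts. Ccl2 and Ccl7 were each other's closest gene (r = 0.913), followed by Pofut2 (r = 0.835) and Ier5 (r = 0.809) for Ccl2 and by Eda2r (r = 0.864) and Dus2 (r = 0.847) for Ccl7. Cx3cl1 was most like Tapbp (r = 0.967), Inpp5k (r = 0.955) and Ube2l6 (r = 0.952). For Ccl5 these were Il18rap (r = 0.897), Ifit1 (r = 0.893) and C77080 (r = 0.888). Cxcl10 was closest to Zfand5 (r = 0.857), Clic4 (r = 0.855) and Spn (r = 0.835). Cxcl1 was closest to A530017D24Rik (r = 0.838), Klf2 (r = 0.802) and Fbln2 (r = 0.785). These correlations describe samples that fall into 8 lines, and samples of a line are not independent of each other.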

How the data were processed

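The authors sequenced poly(A) RNA from 24 samples of 8 MC38 lines as single 50 bp reads, trimmed them with Sickle, aligned them with HISAT2 2.0.4 to GRCm38 and counted them per gene with featureCounts (Subread 1.5.0-p3), leaving out reads that overlap several genes. As deposited by the authors, the values are of the unit score: read counts scaled with edgeR 3.18.1 by library size and TMM factors, then rounded to whole numbers. No count model was used on them. Normalized totals were even, and the reads behind them were not estimated here, so values near the floor of 3 carry an unknown counting error.

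Samples were grouped by their labels. Each pair of lines was compared with limma 3.58.1 in R 4.3.3 (lmFit, then eBayes with trend) after a pseudocount of 1 was added and log2 taken. Each fit held the 6 samples of its pair of lines and no covariates. A gene was dropped when over 4 of 6 values were 0 (8 of 12, 20 of 24). Benjamini-Hochberg adjustment ran over all genes tested, and an adjusted p below 0.05 called a gene. The difference between effects was the interaction term of a fit of 12 samples, and the test over all lines a moderated F test of 24. The fits were tested on simulated data in which 200 genes were changed 2-fold. Of these, 123 were recovered for MC38-COSMC KO, 132 for MC38-FUT9, 113 for the interaction and 146 for the test over all lines. Between 3 and 9 unchanged genes were called. A 2-fold difference can thus fail to pass. P-values measure the spread between passages of a line. Each genotype was a single line, so p-values do not measure the spread between lines of a genotype. In the line labelled FUT4, 2 of the samples (1 and 3) carry the same passage number. They were counted separately.

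All 10 chemokines were named, and the transcription factors, proteases and targeted genes where a result turned on them. The members and gene lists were chosen with earlier results of these data known. A receptor and a transcription factor of these lists are not reported here. Alternatives were the pseudocount, filter and scaling, no trend, a replicate block, a fit of all 8 lines, and leaving out each sample. Tables and figures were made with pandas 2.3.3, numpy 2.4.6 and matplotlib 3.10.9 under Python 3.11.15.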

Additional observations from a re-analysis of the deposited data

Results flagged for a closer look

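For 6 chemokines the effect of the COSMC knockout differed, by the interaction test in limma, between the line with CMAS intact and the CMAS knockout line. On the log2 scale the difference between the effects was -1.80 for Ccl2, -4.73 for Ccl7, -1.37 for Cxcl1, -2.02 for Cxcl5, 2.78 for Cxcl11 and 2.44 for Cx3cl1, with adjusted p of 0.000411, 4.85e-07, 0.00778, 0.0208, 0.0119 and 0.000664. Ccl2, Ccl7, Cxcl1 and Cxcl5 were raised in MC38-COSMC KO against MC38-MOCK#1, and Cx3cl1 was lowered there. Untransfected MC38-WT overlapped with MC38-COSMC KO in Ccl2, Ccl7 and Cxcl1, at 914 to 1806, 93 to 185 and 184 to 345 normalized counts. MC38-MOCK#1 was at 420 to 918, 11 to 21 and 89 to 155. Cxcl5 was at 5 to 7 in MC38-WT, below MC38-COSMC KO, and Cx3cl1 overlapped with both lines. Of these genes, only Ccl7 was called between MC38-WT and MC38-MOCK#1. Whether the differences belong to MC38-COSMC KO or to MC38-MOCK#1 was not tested. None of the 3 MC38-DKO samples reached the lowest MC38-COSMC KO value of Ccl2, Ccl7, Cxcl1 or Cxcl5. The 4 lines of the interaction test were all harvested at passages 4 to 6. Each genotype was a single line, so the knockouts and other differences between the lines cannot be told apart. Over all genes, 4736 of 21396 were called in this test. Between MC38-DKO and MC38-MOCK#1, 20 of 21738 were called. Whether the double knockout lacks functional COSMC was not tested by its RNA.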

How the results depend on the processing

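Counts of called chemokines moved under several settings. In MC38-WT the count of 1 became 2 with a pseudocount of 5, with a mean of at least 10 and without a trend, 0 with the replicate block and 6 in the fit of all 8 lines together. Of all genes, 1192 were called in the main fit, 0 with the replicate block and 2981 in the fit of all 8 lines. With a pseudocount of 5, a mean of at least 10 and no trend, 1211, 1367 and 717 were called. In MC38-COSMC KO the count of 5 became 3 without a trend and 0 with the replicate block, and in MC38-CMAS KO the count of 2 became 1 and 0. Calls over all genes fell with these settings as well. In MC38-COSMC KO they were 2563 in the main fit, 1135 without a trend and 4 with the replicate block. In MC38-CMAS KO they were 1268, 726 and 1. In MC38-MOCK#2 the count of 1 became 2 with a mean of at least 10 and when the 8 lines were fitted together, and 0 without a trend. With the replicate block its 1 call was Cxcl10 (0.681, adjusted p = 0.0291) in place of Cxcl1. Over all genes, MC38-MOCK#2 had 2454 calls in the main fit, 1389 without a trend and 2168 with the replicate block. It had 2731 with a mean of at least 10 and 3976 in the fit of all 8 lines. The count of 4 in the line labelled FUT4 became 3 with the replicate block, as Ccl2 was lost, and in MC38-FUT9 the count of 3 became 4 with a mean of at least 10 (Cxcl10 added) and in the fit of all 8 lines (Cxcl5 added). Calls over all genes went from 3509 to 1756 in the line labelled FUT4 with the block. In MC38-FUT9 they went from 5166 to 5120 with that mean and to 5928 in the fit of all 8 lines. Leaving out each sample in turn gave 0 to 1 for MC38-WT, 1 to 4 for MC38-COSMC KO, 0 to 2 for MC38-CMAS KO, 0 to 1 for MC38-MOCK#2 and 1 to 4 for the line labelled FUT4. It gave 2 to 3 for MC38-FUT9, 5 to 6 for the interaction and 7 to 8 over all lines, and 0 throughout for MC38-DKO. Over all genes it gave 31 to 693 calls for MC38-WT, 675 to 2137 for MC38-COSMC KO and 122 to 876 for MC38-CMAS KO. The ranges were 632 to 1737 for MC38-MOCK#2, 1621 to 3112 for the line labelled FUT4 and 3089 to 5065 for MC38-FUT9. They were 3925 to 4697 for the interaction, 9399 to 10456 over all lines and 0 to 4 for MC38-DKO. The fits that leave out a sample also hold fewer samples, and the cause of these changes was not tested.

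Of 1219 values for single chemokines under an alternative, 1116 kept their direction and side of the threshold, 60 lost and 15 gained a call, and 28 changed sign, all of them values that were not called. With a pseudocount of 5, Ccl5 in the interaction was -0.0700. Leaving out a sample gave -0.0494 to 0.347 for Cxcl1 and -0.412 to 0.313 for Cxcl10 in MC38-CMAS KO, -0.683 to 0.441 for Ccl5 and -0.352 to 0.0440 for Cx3cl1 in MC38-DKO, -0.357 to 0.143 for Cx3cl1 in MC38-MOCK#2, -0.311 to 0.689 for Ccl5 in the line labelled FUT4, -0.474 to 0.0389 for Ccl7 in MC38-FUT9, and -0.474 to 0.650 for Ccl5 and -0.281 to 0.444 for Cxcl10 in the interaction.

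In no comparison of 2 lines did all 3 pairs of same-numbered samples correlate above 0.1 in their deviations from the line means (r from -0.213 to 0.254), so the numbers were not taken as pairs. Every sample correlated best with its own number in 2 of 7 comparisons, MC38-MOCK#2 against MC38-MOCK#1 and MC38-FUT9 against MC38-MOCK#2, a hint from the data and not from the design. Other scalings moved the median of all genes by at most 0.09 on the log2 scale. Values at or below the floor of 3 normalized counts, as for Cxcl9, Cxcl11 and Cxcl16 in most samples and Cxcl5 in MC38-MOCK#1 and MC38-FUT9, limit what can be said of these 4 genes.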
